A study of Mus musculus with 6 samples.

Results

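Pkd1, Kmt2e and R3hdm1 are 3 of the 16154 genes that appeared in lists of alternative splicing and transcript-end events made from the mouse nucleus accumbens, the ventral striatal region in which reward-related signals meet. They were chosen because each had the most entries of any gene in at least 1 of 6 libraries. Together they held 2299 of 440199 entries, which is 0.522% of the total. Since the number of entries chose the genes, their numbers of events, retained introns included, are described below and not tested.

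The study trained C57BL/6N mice in conditioned place preference, a procedure in which an animal learns to link a chamber with an injection, and compared animals given morphine injections with animals given saline injections. Nucleus accumbens tissue gave 3 libraries in each group, and the labels name no transgene, deletion or other agent. The series text gives 6 mice for the 3 samples of each group, while the paper's legends speak of single mice, so whether each library pooled animals was not settled, and the differences between libraries may be partly technical. The libraries came from bulk tissue, so fewer cells of a type and less RNA per cell could not be told apart.

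Pkd1 encodes polycystin-1, a very large membrane protein that works with the channel polycystin-2 and is best known for its mutation in autosomal dominant polycystic kidney disease. Kmt2e encodes MLL5, a chromatin protein with a PHD finger that binds methylated histone H3 and a SET domain, and its loss of function causes a human neurodevelopmental disorder. R3hdm1 encodes a protein with an R3H domain, a fold that binds single-stranded nucleic acid, and its gene hosts the hairpin of the brain-enriched microRNA miR-128. A retained intron is one that stays in a transcript instead of being spliced out, and a cassette exon is one that some transcripts include and others skip.

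All positions match GRCm38 with the GENCODE M21 annotation. Pkd1 (ENSMUSG00000032855) lies on the plus strand at chr17:24549834-24596508, and its principal transcript has 46 exons and 45 introns. Kmt2e (ENSMUSG00000029004) lies on the plus strand at chr5:23434441-23504235, with 27 exons and 26 introns in its principal transcript. R3hdm1 (ENSMUSG00000056211) lies on the plus strand at chr1:128103301-128237736, with the same numbers of exons and introns. The 3′ ends of Pkd1 and Kmt2e overlap genes on the minus strand, Tsc2 and Srpk2, but every entry of the 3 genes was on the plus strand.

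The coding cassette exons listed in all 6 libraries are printed here because they are splicing differences that every library shared. The exon is in capitals and the neighbouring exon bases are in lower case, 5′ to 3′ on the plus strand, read from the GENCODE M21 transcripts. Pkd1 exon 31 covers chr17:24587179-24587292, Kmt2e exon 25 chr5:23500451-23500576, R3hdm1 exons 4 and 5 chr1:128162202-128162243 and chr1:128162769-128162858, and R3hdm1 exon 17 chr1:128190638-128190739.
Pkd1 exon 31: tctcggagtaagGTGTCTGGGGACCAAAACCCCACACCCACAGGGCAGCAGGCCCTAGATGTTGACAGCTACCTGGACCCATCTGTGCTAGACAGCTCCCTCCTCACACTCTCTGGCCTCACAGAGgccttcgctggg
Kmt2e exon 25: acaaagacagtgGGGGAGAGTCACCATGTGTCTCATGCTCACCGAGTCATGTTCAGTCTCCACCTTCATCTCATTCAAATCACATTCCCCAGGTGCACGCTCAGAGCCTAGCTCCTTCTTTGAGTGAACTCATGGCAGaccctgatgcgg
R3hdm1 exon 4: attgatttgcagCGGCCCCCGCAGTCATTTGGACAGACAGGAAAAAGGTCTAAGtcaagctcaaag
R3hdm1 exon 5: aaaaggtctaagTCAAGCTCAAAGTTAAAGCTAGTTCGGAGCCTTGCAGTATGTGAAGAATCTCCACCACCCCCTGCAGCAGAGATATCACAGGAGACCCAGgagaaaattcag
R3hdm1 exon 17: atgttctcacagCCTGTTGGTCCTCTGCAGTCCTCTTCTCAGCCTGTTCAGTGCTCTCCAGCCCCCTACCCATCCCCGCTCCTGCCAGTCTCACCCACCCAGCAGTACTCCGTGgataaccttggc

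R3hdm1 also had a cassette exon of 133 nt in all 6 libraries at chr1:128176824-128176956, between exons 9 and 10, that no annotated transcript has as an exon with these ends. It is shown because its sequence could be read from an annotated transcript that runs through it, with the exon in capitals and the intron bases on either side in lower case. The exon was preceded by AG and followed by GT, the bases of an ordinary acceptor and donor site. Its length is not a multiple of 3, and in the reading frame of the preceding exons a TAA stop codon begins at base 122 of the exon.
R3hdm1 unannotated exon: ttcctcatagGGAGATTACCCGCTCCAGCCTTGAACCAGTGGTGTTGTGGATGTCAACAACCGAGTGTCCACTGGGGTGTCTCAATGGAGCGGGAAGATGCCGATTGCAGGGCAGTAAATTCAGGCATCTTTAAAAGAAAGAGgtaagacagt

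The lists hold an entry for each state of an event, so entries were merged into events, each defined by its class and splice coordinates. The forms of an alternative exon end have different coordinates and were not merged. In that family each exon form therefore counts as an event, also in the event totals. A retention or skipping event states that transcripts with and without the intron or exon were both assembled in that library, and no event carries a level. The 12 classes fall into 4 families: intron retention, exon skipping, alternative exon ends, and transcript starts and ends.

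The number of entries that chose the genes varied widely between libraries. Pkd1 had 194, 117 and 125 entries in saline libraries 1 to 3, and 579, 283 and 112 in morphine libraries 1 to 3, against a median of 3 for a listed gene. It ranked first in 4 libraries, second in saline 2 and was the third in morphine 3. Kmt2e had 120, 205 and 23 entries in the saline group and 56, 33 and 122 in the morphine group, and ranked first in saline 2 and as low as 260 in saline 3. R3hdm1 had 49, 55 and 33 entries in the saline group and 27, 27 and 139 in the morphine group, ranking first in morphine 3 and 304 in morphine 1.

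The 3 genes with the most entries in each library among those not chosen were as follows. Some of them had more entries than a chosen gene in the same library. In saline 1 Phf20l1 had 126 entries, Scn3a 114 and Fam149b 94. In saline 2 Setd5 had 111, Phf20l1 91 and Ints6 88, and in saline 3 Tnrc6a had 103, Ccnl1 102 and Entr1 91. In morphine 1 Ppip5k2 had 136, Ahnak 129 and Setd5 128, all far below the 579 of Pkd1. In morphine 2 Eif2s3y had 194, Fam149b 168 and Tnrc6a 140, and in morphine 3 Eme2 had 99, Gon4l 94 and Ankrd24 93.

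After merging, Pkd1 had 90, 61 and 66 events in the saline libraries and 208, 126 and 60 in the morphine libraries. The highest values were in morphine 1 and morphine 2, but morphine 3 was lower than every saline library, so the groups overlapped. The means were 72.3 ± 15.5 events in the saline group and 131 ± 74.1 in the morphine group (SD, n = 3 each), 81.6% higher in the morphine group. Without morphine 1 the difference was 28.6%, and without morphine 3 it was 130.9%. Over all 16154 genes, 2.77% had event numbers that did not overlap between the groups.

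Kmt2e had 56, 85 and 14 events in the saline libraries and 30, 20 and 65 in the morphine libraries. Each group held high and low libraries, and the means of 51.7 ± 35.7 and 38.3 ± 23.6 (SD, n = 3 each) differed by less than either SD. Without saline 2 the difference turned from -25.8% to 9.52% of the saline mean.

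R3hdm1 had 29, 34 and 23 events in the saline group and 17, 18 and 64 in the morphine group. Here morphine 3 stood above the saline range and the other 2 morphine libraries below it. The means were 28.7 ± 5.51 and 33 ± 26.9 events (SD, n = 3 each), 15.1% higher in the morphine group with morphine 3 and -39.0% without it. The library with the most events therefore differed between the genes: morphine 1 for Pkd1, saline 2 for Kmt2e and morphine 3 for R3hdm1.

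**Figure D1:**
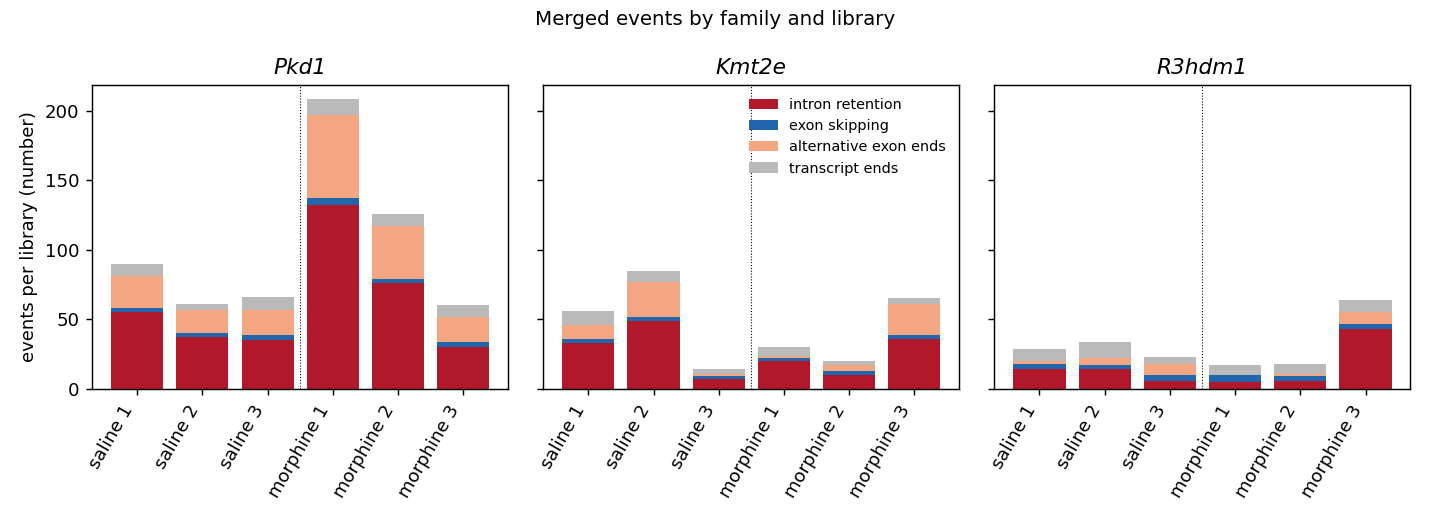
Merged events per library (number, y axis from 0) for Pkd1, Kmt2e and R3hdm1, 1 bar per library, stacked by family of event. The retention part of the bars varied most, from 30 to 132 events in Pkd1, from 7 to 49 in Kmt2e and from 5 to 43 in R3hdm1, while exon skipping stayed between 2 and 5 in all bars.

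Intron retention made up much of each gene's events. Retention events numbered 55, 37 and 35 in the saline libraries and 132, 76 and 30 in the morphine libraries for Pkd1. For Kmt2e they numbered 33, 49 and 7 in the saline group and 20, 10 and 36 in the morphine group. For R3hdm1 they numbered 14, 14 and 6 in the saline group and 5, 6 and 43 in the morphine group. The groups overlapped for each of the 3 genes, and over the 4970 genes with any retention event 2.96% had groups that did not overlap.

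Retention events formed 50% to 63.5% of the events of Pkd1 in a library, 50% to 66.7% of those of Kmt2e and 26.1% to 67.2% of those of R3hdm1. Over all genes the share was 9.57% to 15.4%. High shares were not particular to the 3 genes. Of the genes most like them in event numbers, named below, Phf20l1 had 34 retention events among 61 in saline 1. Tnrc6a had 42 among 66 in morphine 2, while Unc79 had 3 among 20 in morphine 1. Retention events were among the values by which that likeness was measured. The whole libraries differed too: saline 1 to 3 held 7975, 5490 and 5473 retention events over all genes, and morphine 1 to 3 held 9604, 7359 and 6483. Morphine 1, the library in which Pkd1 was highest, also had the most retention events over all genes. Pkd1 supplied 0.69%, 0.674% and 0.64% of the saline libraries' retention events and 1.37%, 1.03% and 0.463% of the morphine libraries', so its share also differed between libraries.

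Relative depth, read from the counts and FPKM values of a table of lncRNA transcripts, was 1, 1.07 and 1.37 in saline 1 to 3 and 1.20, 1.59 and 1.29 in morphine 1 to 3. Kmt2e and R3hdm1 had few events in morphine 2, the deepest library by this measure, and Pkd1 had fewer there than in morphine 1. The part of depth or of the library's retention total in these numbers was not tested. All 9 markers of striatal projection neurons, such as Drd1 and Drd2, were listed in every library, as were all 4 of cortical excitatory neurons, all 3 each of astrocytes, oligodendrocytes and microglia, and 2 of 3 of choroid plexus and ependyma. Being listed does not give a level.

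Alternative exon ends, counted by exon form, also varied between libraries. In Pkd1 they numbered 23, 17 and 18 in the saline group and 60, 38 and 18 in the morphine group. In Kmt2e they numbered 10, 25 and 2 in the saline group and 2, 4 and 22 in the morphine group, and in R3hdm1 they were 2, 5 and 8 against 0, 2 and 8. Of the 12 classes, AE, alternative exon ends of the plain form, was the only one in which Pkd1's groups did not overlap. It had 8, 4 and 6 exon forms in the saline libraries and 17, 13 and 10 in the morphine libraries. Alternative forms of the same exon count separately here, such as 24586462-24586588 and 24586462-24587292. In Kmt2e and R3hdm1 the groups overlapped in every class. Higher values in the morphine group with no overlap occurred in 0.993% of the 3625 genes with an AE event, and this class is part of the number that chose the gene. That share was not limited to genes with as many AE events as Pkd1.

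Because 1 intron can enter several events, with different flanking exons or as part of a run, retained introns were also counted once each. Pkd1 had 25, 25 and 19 distinct retained introns in the saline libraries and 48, 33 and 23 in the morphine libraries. By this count it ranked first among all genes in all 6 libraries, including saline 2 and morphine 3, where another gene had more entries. The groups overlapped, since morphine 3 lay within the saline range, and 2.82% of 4970 genes had groups that did not overlap in this measure.

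Kmt2e had 17, 20 and 10 distinct retained introns in the saline libraries and 18, 10 and 21 in the morphine libraries. The means of 15.7 ± 5.13 and 16.3 ± 5.69 (SD, n = 3 each) differed by less than either SD, while its number of retention events differed by -25.8% from the saline group. R3hdm1 had 10, 15 and 4 distinct retained introns in the saline libraries and 5, 6 and 19 in the morphine libraries, with means of 9.67 ± 5.51 and 10 ± 7.81 (SD, n = 3 each). Its number of retention events was 58.8% higher in the morphine group, but without morphine 3 the difference was -51.5%.

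The number of retention events divided by the number of distinct retained introns was 1.3 to 2.75 for Pkd1, depending on the library. Several introns can enter 1 run, so this ratio is not the number of events per intron. The range was 0.7 to 2.45 for Kmt2e, below 1 in saline 3 where runs of introns were listed whole, and 0.933 to 2.26 for R3hdm1. Genes with 10 or more retained introns in a library had medians of 1.26 to 1.43. The longest run of introns retained together in Pkd1 was 4, 3 and 3 introns in the saline libraries and 7, 5 and 5 in the morphine libraries. Those groups did not overlap, and 1.35% of 4970 genes had longer runs in the morphine group with no overlap. Genes with far fewer retained introns than Pkd1 are included in that share. The longest runs in Kmt2e were 5, 6 and 4 introns in the saline group and 3, 2 and 5 in the morphine group, and in R3hdm1 3, 3 and 1 against 1, 2 and 5.

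**Figure D2:**
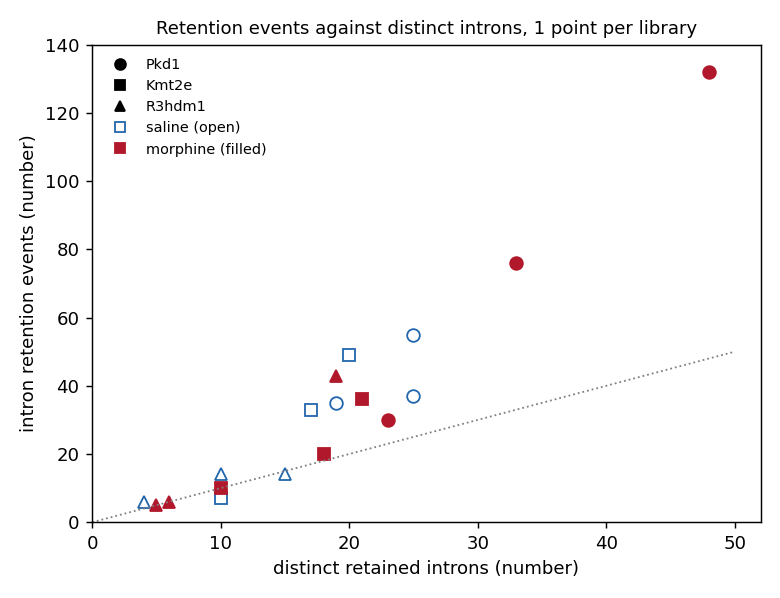
Retention events (number, y axis) against distinct retained introns (number, x axis), 1 point per library and gene, with open symbols for saline and filled symbols for morphine, and a dotted line where both numbers are equal. The most events came from Pkd1 in morphine 1, with 132 events from 48 introns, while Kmt2e in saline 3 had fewer events, 7, than introns, 10.

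Over all 6 libraries Pkd1 had 53 distinct retained introns, of which 43 were at annotated positions. They were short, with a median of 200 nt and a range of 66 to 3918 nt. Kmt2e had 27, of which 23 were annotated, with a median of 1075 nt, and R3hdm1 had 19, of which 18 were annotated, with a median of 2534 nt. Over all genes 18755 introns were listed, 88.9% of them annotated, with a median of 714 nt.

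Retained introns of these genes recurred between libraries. In Pkd1, 8 of 53 were listed in all 6 libraries and 11 in 1 library. In Kmt2e these numbers were 5 and 5 of 27, and in R3hdm1 1 and 2 of 19. Over all genes 4.12% of retained introns were listed in all 6 libraries and 54.2% in 1 library. Those shares were not limited to genes with as many retained introns, and the 3 genes were chosen for their number of entries. Of the merged events, in which class and run also count, 2.06% of Pkd1's 291, 2.67% of Kmt2e's 150 and 7.45% of R3hdm1's 94 were in all 6 libraries, each below the 20.5% of all events. The share of events seen in 1 library was 50.9%, 55.3% and 54.3%, against 50.6% over all 133207 events. These comparisons mix families, since 75931 of all events were transcript starts and ends, of which 29.8% were in all 6 libraries. Among retention events alone 0.556%, 0% and 1.89% were in all 6, against 1.70% over all genes. In 1 library were 51.7%, 54.5% and 56.6% of retention events, against 67.6%.

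**Figure D3:**
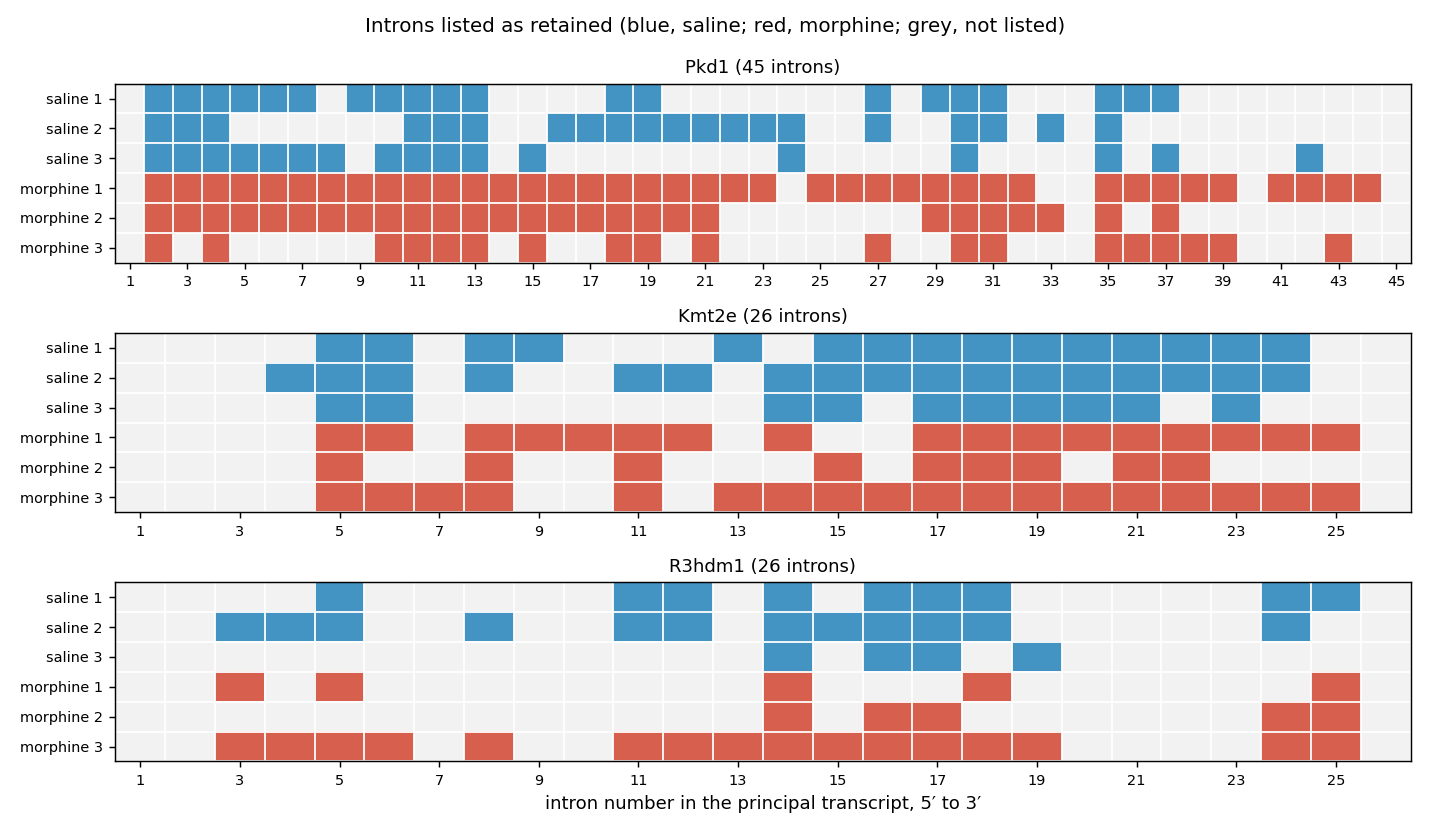
Introns of the principal transcript listed as retained, 1 column per intron from 5′ to 3′ and 1 row per library, filled blue for saline and red for morphine. In Pkd1 the filled cells reach from intron 2 to intron 44, in Kmt2e from intron 4 to intron 25 and in R3hdm1 from intron 3 to intron 25.

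In Pkd1, 41 of the 45 introns of the principal transcript were listed as retained in at least 1 library. Morphine 1 listed 39 of them, morphine 2 listed 27, morphine 3 listed 19, and the saline libraries listed 20, 20 and 17. The introns listed in all 6 libraries were 2, 4, 11, 12, 13, 30 and 35, which range from 77 nt for intron 35 to 1075 nt for intron 11. The 4 never listed were introns 1, 34, 40 and 45. Intron 1 is 13672 nt long and intron 34 2797 nt, but introns 40 and 45 are 129 and 94 nt, so the never listed introns were not all long.

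In Kmt2e 22 of 26 introns were listed. Introns 5, 17, 18, 19 and 21 were listed in all 6 libraries, of which 4 lay next to or near each other in the 3′ part of the gene. Introns 1, 2, 3 and 26 were never listed as retained. Such an intron can still lie inside a first exon. In saline 1 and morphine 3 a first exon ran without a break from 23434449 to 23446598 and so held intron 1. The listed introns had a median length of 1031 nt and the others of 7647.5 nt. In R3hdm1 16 of 26 introns were listed, with a median of 2360.5 nt against 4345.5 nt for the 10 that were not. Intron 14 was listed in all 6 libraries, and introns 16 and 17 in 5, all but morphine 1. Here too, introns not listed lay inside first exons. In morphine 3 a first exon from 128170953 to 128178991 held intron 9. First exons ending at 128223641 held intron 22 in saline 1 and saline 2. The length comparisons therefore concern listing as retained only.

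**Figure D4:**
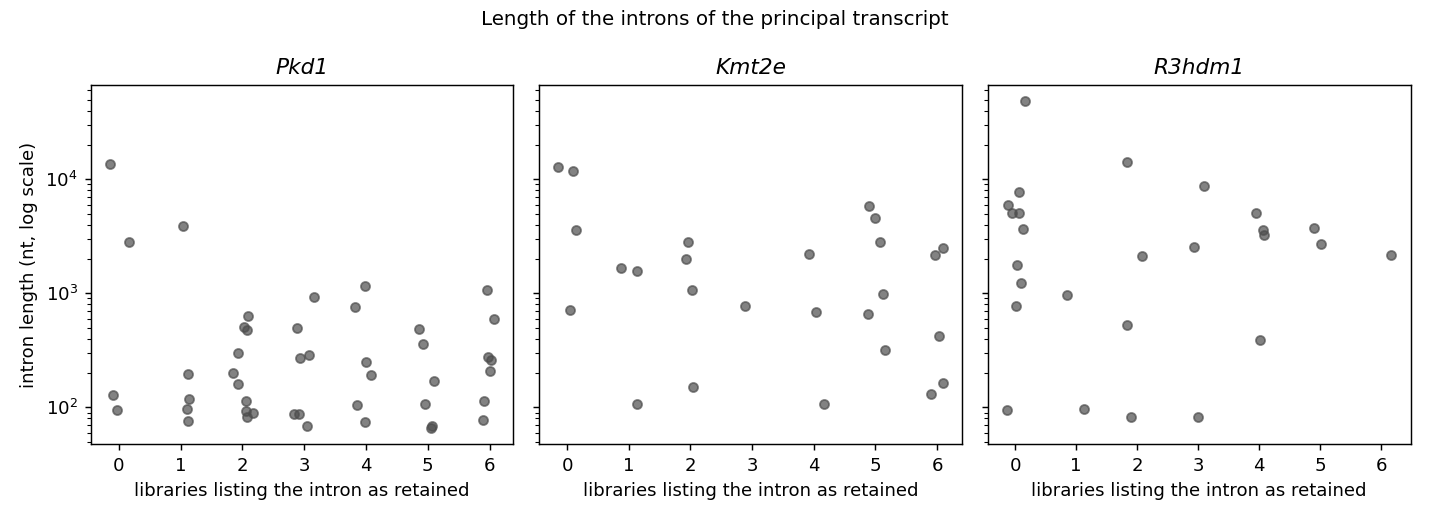
Length of each intron of the principal transcript (nt, log scale, y axis) by the number of libraries that listed it as retained (x axis, 0 to 6, with points spread sideways for legibility). Short and long introns occur at most positions on the x axis, and in each gene the longest intron, 13672 nt in Pkd1, 12679 nt in Kmt2e and 48260 nt in R3hdm1, was never listed.

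The splice sites of Kmt2e intron 17 and R3hdm1 intron 14 are shown because these introns were listed in all 6 libraries and lie inside an annotated transcript, from which their sequence could be read. Kmt2e intron 17 covers chr5:23493508-23495985 (2478 nt, 36.1% G and C). R3hdm1 intron 14 covers chr1:128182213-128184399 (2187 nt, 32.5% G and C). Capitals mark the first 2 and the last 2 bases of the intron.
Kmt2e intron 17 donor: aacaaagaagGTatgcgtcctaacgacagt
Kmt2e intron 17 acceptor: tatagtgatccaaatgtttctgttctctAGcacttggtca
R3hdm1 intron 14 donor: tcaaaaacagGTatcagtgtctacttagaa
R3hdm1 intron 14 acceptor: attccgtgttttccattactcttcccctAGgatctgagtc

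Both introns begin with GT and end with AG. Read in the frame of the upstream coding exons, Kmt2e intron 17 holds a TAG stop codon from base 46 and R3hdm1 intron 14 a TAA stop codon from base 171. R3hdm1 intron 8, at chr1:128175009-128175091 and listed in 2 libraries, holds a TAA from base 2. Among the short Pkd1 introns that an annotated transcript runs through, intron 23 holds a TAG from base 87, while introns 22 and 36, of 89 and 69 nt, hold no in-frame stop codon.

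The measures that did not enter the choice of genes were tested between the groups. The share of single-intron retention events at an annotated intron was 85.5% ± 2.29 in the saline group and 86.1% ± 4.15 in the morphine group for Pkd1 (SD, n = 3 each, two-sided exact permutation test, p = 0.9). It was 95.1% ± 4.58 and 92.9% ± 6.41 for Kmt2e (SD, n = 3 each, exact p = 0.8), and 96.3% ± 6.42 and 98.5% ± 2.62 for R3hdm1 (SD, n = 3 each, exact p = 1.0).

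The median length of a library's retained introns was 211 ± 40.5 nt in the saline group and 217 ± 30.9 nt in the morphine group for Pkd1 (SD, n = 3 each, exact permutation p = 1.0). It was 1232 ± 679 and 1288 ± 805 nt for Kmt2e (SD, n = 3 each, exact p = 1.0) and 2971 ± 252 and 2970 ± 379 nt for R3hdm1 (SD, n = 3 each, exact p = 1.0). All 6 Benjamini-Hochberg adjusted p-values were 1.0. With 3 libraries against 3 the smallest p the exact test can give is 0.1, so no difference could have passed 0.05. The length result for Kmt2e depended on how introns in runs were counted. With runs left out, the medians of Kmt2e were 987, 876.5 and 663 nt in the saline libraries and 1075, 2351.5 and 1581 nt in the morphine libraries. These groups did not overlap and differed by 827 nt, with the smallest p that the exact permutation test can give, 0.1. Some of these medians rest on few introns. In saline 3 Kmt2e had 2 plain single-intron retention events and 1 with differing flanking exon boundaries, and in morphine 2 it had 7 and 1. Of the 583 genes with a retained single intron in every library, 2.57% had longer medians in the morphine group with no overlap. With identity by all coordinates the difference for Kmt2e was 596.7 nt (exact permutation p = 0.2).

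Events present in all libraries of 1 group and in none of the other were few. Over all genes 879 of 133207 events, or 0.66%, were of this kind. Pkd1 had 4 among 291 events, all listed in the 3 morphine libraries, against 0.382% of all events that were specific to the morphine group, and Kmt2e and R3hdm1 had 0. Requiring 2 libraries of a group in place of 3 gave 27, 12 and 5 events, which is 9.28%, 8% and 5.32% of the events of Pkd1, Kmt2e and R3hdm1, against 5.74% of all events. The 4 events of Pkd1 found in all morphine libraries and no saline library were not independent of each other, as described below. One of these 4 was the retention of Pkd1 intron 21 by itself, at chr17:24578960-24579721, but saline 2 listed the same intron inside a longer run. No retained intron of the 3 genes was listed in all libraries of 1 group and none of the other, against 1% of all 18755 introns.

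The other 3 events lay at 1 site, around a 19 nt exon of Pkd1 at chr17:24571402-24571420 that no annotated transcript holds, inside intron 12. This exon was listed as a cassette exon in 5 libraries, all but saline 3. Its acceptor was also used by an unannotated exon of 295 nt, chr17:24571402-24571696, that runs on to the end of exon 13 and was listed in all 6 libraries. The 100 nt between the 19 nt exon and exon 13 were listed as a retained intron in saline 1, saline 2 and all morphine libraries. What the morphine libraries alone had were entries of the classes in which flanking exon boundaries differ between the transcripts compared. They were the 19 nt exon and the 295 nt exon as alternative exon ends, and the 100 nt intron as retained. The first and second of these are forms that share an acceptor, and the intron separates the 19 nt exon from exon 13. The plain class of alternative exon ends held the 295 nt exon but not the 19 nt exon. The 19 nt exon and the 295 nt exon were themselves present in both groups.

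Exon skipping was the most even family. Pkd1 had 3, 3 and 4 skipping events in the saline libraries and 5, 3 and 4 in the morphine libraries. Kmt2e had 3, 3 and 2 against 2, 3 and 3, and R3hdm1 had 4, 3 and 4 against 5, 3 and 4.

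Pkd1 exon 31, printed above, has 114 nt and 38 codons, and its skipping joins exons 30 and 32 as in an annotated transcript. Introns 30 and 31, on either side of it, were listed as retained in 6 and 5 libraries. Exon 4 of Pkd1, with 170 nt and so no whole number of codons, was a cassette exon in 5 libraries, all but saline 2. Exon 2, with 72 nt, was skipped in saline 3 and morphine 1.

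Kmt2e exon 25, with 126 nt and 42 codons, was skipped in all 6 libraries by a junction that the annotation does not hold. Exon 2 of Kmt2e, 73 nt at chr5:23446526-23446598 and wholly in the 5′ UTR, was also a cassette exon in all 6. Exon 18, with 255 nt and 85 codons, was skipped in saline 1, saline 2, morphine 2 and morphine 3, and lies between introns 17 and 18, both retained in all 6 libraries.

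R3hdm1 exons 4 and 5, of 42 and 90 nt, were skipped together in all 6 libraries, which removes 14 and 30 codons. Exon 17, of 102 nt and 34 codons, was skipped in all 6 as well. Both of these skips and that of the 133 nt exon use annotated junctions. Exon 15, with 255 nt and 85 codons, was skipped in saline 3, where transcripts without it also use an annotated junction.

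Transcript starts varied more than ends. Pkd1 had 8, 3 and 8 starts in the saline libraries and 10, 8 and 7 in the morphine libraries, counted by the splice site that ends the first exon. The first exon ending at 24550477, that of the principal transcript, was listed in all 6. In 5 libraries, all but morphine 3, a first exon beginning at 24549950 ran without a break to the end of exon 2 at 24564221, so that it held all of intron 1, the longest intron of the gene and one never listed as retained. Morphine 3 had first exons from the same start that ran on to the ends of exons 3 and 5, at 24564407 and 24565682, and so every library had a first exon that held intron 1. A first exon ending at 24549019, upstream of the annotated gene, was listed in saline 1 and the 3 morphine libraries. Another upstream first exon, ending at 24549180, was listed in saline 3.

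Kmt2e had 9, 7 and 2 starts in the saline libraries and 5, 2 and 3 in the morphine libraries, and the annotated first exon was listed in all 6. R3hdm1 had 8, 11 and 2 against 6, 6 and 8. Besides its annotated first exon, R3hdm1 had a second one ending at 128142092 in all 6 libraries. First exons that began within intron 7, between 128170953 and 128171006, and ended at the ends of exons 8 and 9 were listed in 5 libraries, all but saline 3. The forms that ended with exon 9 contained intron 8. Pkd1 and Kmt2e had 1 transcript end in every library, and R3hdm1 had 1 in 5 libraries and 3 in saline 3.

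R3hdm1 intron 19, chr1:128197098-128211204, holds the hairpin of miR-128-1 at chr1:128202361-128202430. Its mature strands are printed because reads from the host intron and from the microRNA precursor cannot be separated in these lists. The sequences are from RefSeq on GRCm38.p6, 5′ to 3′, with the seed, bases 2 to 8, in capitals.
mmu-miR-128-3p: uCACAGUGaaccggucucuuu
mmu-miR-128-1-5p: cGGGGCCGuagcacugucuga

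The intron that holds the hairpin, 14107 nt long, was listed as retained in saline 3 and morphine 3. A first exon that contained the hairpin was listed in another 2 libraries, with 5770 nt in saline 1 and 5784 nt in morphine 1, both ending at 128203434. Each form was listed in 1 library of each group, and saline 2 and morphine 2 listed neither. The hairpin's own gene entry, Mir128-1, had no event in any library.

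Related genes, from family lists fixed by background knowledge, mostly had fewer events. Pkd2, which encodes the polycystin-2 channel, had 15, 5 and 12 events in the saline libraries and 18, 11 and 17 in the morphine libraries, of which 1 to 6 were retention events. The other 8 polycystin and fibrocystin genes, such as Pkd1l1 and Pkhd1, had 0 to 2 events in any library and no retention event. Tsc2, the tumour suppressor gene that overlaps the 3′ end of Pkd1, had 31, 12 and 19 events against 31, 23 and 9.

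Among the relatives of Kmt2e, the histone methyltransferase genes Kmt2a, Kmt2b, Kmt2c and Kmt2d had between 2 and 32 events in a library. Setd1a and Setd1b, which encode methyltransferases of the same histone residue, had 2 to 12. Setd5, which encodes a SET domain protein, had 28, 61 and 18 events in the saline group and 67, 65 and 40 in the morphine group, with 6 to 36 retention events. Among the R3H genes, R3hdm2 had 12 to 22 events with 0 to 3 retention events, and Arpp21, which hosts another copy of miR-128, had 10 to 14 events with 0 or 1. R3hdm4, R3hcc1 and R3hcc1l had 2 or 3 events each. None of these related genes had event numbers that did not overlap between the groups, against 2.77% of all 16154 genes.

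The genes whose event numbers were most like those of each member were found by Bray-Curtis distance over 24 values, the 4 families in 6 libraries, among 13183 genes with events in every library. A distance of 0 means equal values and 1 means nothing shared. For Pkd1 they were Setd5 (0.425), Tnrc6a (0.427) and Phf20l1 (0.453), against a median of 0.943 over all genes. For Kmt2e they were Ankrd24 (0.323), Phf20l1 (0.328) and Eml5 (0.332), with a median of 0.875. For R3hdm1 they were Sec24b (0.267), Ppfia1 (0.284) and Unc79 (0.285), with a median of 0.823. Their highest libraries were not all those of the members: Tnrc6a had the most events, 66, in morphine 2, and Phf20l1 the most, 61, in saline 1.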

How the data were processed

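The authors made strand-specific libraries from nucleus accumbens total RNA, aligned reads with HISAT2 and assembled transcripts with StringTie and gffcompare. The genome build is not given in the sources used here. The deposited event lists, in the layout of ASprofile, give positions for 20 event types and no level: their column named FPKM holds zeros and negative whole numbers (lowest -25) and was not used. The authors also deposited raw read counts and FPKM values for 31 lncRNA transcripts, used here only for relative depth (count divided by FPKM, 91 values with counts of 10 or more). The authors' fold changes and FDR in that table were not used.

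Rows were assigned by GENCODE M21 gene identifier. Included and skipped rows of 1 event were merged by class, gene, strand and splice coordinates. The forms of an alternative exon end were not merged. Runs of retained introns were split into single introns. Replicate numbers follow accession order. Group differences in annotated share and length were tested by exact permutation, two-sided, adjusted over 6 tests by Benjamini-Hochberg. Named genes were the 3 members, the 3 genes with most rows otherwise in each library, the 3 most alike by Bray-Curtis distance and fixed family lists. The members and lists were chosen with earlier results of these data known. Scripts were tested on simulated data and ran in Python 3.11.15, with scipy 1.17.1 for the tests, matplotlib 3.10.9 for the plots, and tables held in pandas 2.3.3 on numpy 2.4.6.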

Additional observations from a re-analysis of the deposited data

How the results depend on the processing

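Of 141 alternative values for 15 results, 109 were counted as unchanged, but this tally is not a measure of robustness. The rule differed by result. Event and retention numbers had to stay within the spread, and group-specific counts within a fixed ratio of the main count. Annotated share and length had to keep their direction and their side of 0.05 in the exact permutation test, which no value could pass. The alternatives limited to a gene's own strand could not differ, since every entry was on that strand. For event and retention numbers the spread was 1 SD, which for R3hdm1 retention events was 138.2% of the saline mean. The change of that result from 58.8% to -51.5% without morphine 3 was therefore counted as within the spread. Identity by all coordinates raised the number of Pkd1 events specific to a group from 4 to 8 (1.02% of its events, against 0.519% of all events), and presence in at least 2 libraries of a group with none in the other gave 27 for Pkd1, 12 for Kmt2e and 5 for R3hdm1, against 5.74% of all events. The difference in annotated share for Pkd1, 0.66 percentage points, was -0.074 with identity by all coordinates and -0.41 when each intron of a run was counted; the cause was not tested. Leaving out each library in turn gave 5 to 21 group-specific events in Pkd1, 1 to 7 in Kmt2e and 0 to 2 in R3hdm1; with the looser rule this makes, 1.82% to 2.19% of all events were group-specific, and Pkd1's 21, without morphine 3, were 7.34% of its events. The same ranges were -1.62 to 2.42, -5.72 to 0.53 and -1.52 to 4.04 percentage points for the annotated share, and -13.7 to 26.8, -400.4 to 434.1 and -126.2 to 217.2 nt for the median length, in the order Pkd1, Kmt2e, R3hdm1. With runs left out the length differences were 14.3, 827 and -337.7 nt in that order, and with all coordinates 51.5, 596.7 and -189.7 nt, in place of 6.17, 55.7 and -0.83 nt.

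The event number of Pkd1 was 28.6% higher in the morphine group without morphine 1 and 130.9% higher without morphine 3. That of Kmt2e ranged from -51.6% without morphine 3 to 9.52% without saline 2. That of R3hdm1 was 15.1% higher with all libraries and differed by -39.0% without morphine 3, and its retention events went from 58.8% higher to -51.5% without that library. Counting distinct introns, an alternative chosen after seeing the data, gave 50.7% for Pkd1 in place of 87.4%, 4.26% for Kmt2e in place of -25.8% and 3.45% for R3hdm1 in place of 58.8%. Counting every entry gave event differences of 123.4%, -39.4% and 40.9% in place of 81.6%, -25.8% and 15.1%, and identity by all coordinates 105.9%, -34.1% and 35.8%. For retention events the same alternatives gave 139.9%, -43.8% and 83.8%, and 118.2%, -37.7% and 76.1%. Leaving out transcript starts and ends, also chosen after seeing the data, gave event differences of 87.7%, -23.9% and 26.7%. No paired analysis was possible because the labels give no replicate numbers that the groups share.

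The lists hold no counts per event, so the depth behind each event is unknown and no interval can be given. An event that is not listed is not shown to be absent from the tissue.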
